A study of Mus musculus with 8 samples.

Results

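The 10 genes described here make prostaglandins and leukotrienes: Pla2g4a, Ptgs1, Ptgs2, Ptges, Ptges2, Ptges3, Alox5, Alox5ap, Lta4h and Ltc4s. They were chosen by name, and every non-control probe whose transcript accession carries that symbol was taken. This gave 15 probes for the 10 genes, out of 41174 probes and 18535 named genes on the array. All 10 genes passed the filter on dim probes, as did 15178 genes in all. RAW 264.7, a macrophage-like line of BALB/c mouse origin, was exposed for 6 hours to *Lactobacillus acidophilus*, *Bacillus clausii* or *Bifidobacterium bifidum* at a multiplicity of infection of 1. RNA from exposed cells carried Cy5, and RNA from untreated cells kept for the same time carried Cy3, on 8 two-colour arrays. Each strain had 3 arrays, except *L. acidophilus* with 2, and the arrays lay on 2 slides.

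Slide 1 held both *L. acidophilus* arrays and replicate 3 of the other strains, and slide 2 had replicates 1 and 2 of both *Bacillus* and *Bifidobacterium*. Each slide had its own scan, so slide and scan cannot be told apart. The dyes were never swapped, so a dye effect and a treatment effect that is alike in all strains cannot be told apart. The series states 3 biological replicates per condition, but no label assigns an array to a culture, so p-values measure the spread between arrays, which may be technical. Untreated RNA was only ever the partner of a treated sample. The number of probes well above background was 21454 to 26453 on 7 arrays and 12514 on *B. clausii* replicate 3, for which the scanner software did not accept the spot grid. Over 7336 bright genes, log2 ratios of the same strain on different slides correlated at -0.033 to 0.040. Different strains correlated at 0.463 to 0.479 on slide 2 and at 0.548 to 0.762 on slide 1. Arrays of the same strain and slide correlated at 0.983 (*B. clausii*, slide 2), 0.954 (*B. bifidum*, slide 2) and 0.781 (*L. acidophilus*, slide 1). As a check of the label, all 9 macrophage markers on the array were above background in the untreated channel on 7 or 8 arrays, and no marker of the mast cell, neutrophil, lymphocyte or fibroblast lists was above it on all 8.

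As background, cytosolic phospholipase A2 (Pla2g4a) releases arachidonic acid from membranes. The cyclooxygenases Ptgs1, largely constitutive, and Ptgs2, inducible by bacterial products in macrophages, turn it into prostaglandin H2, which the terminal synthases Ptges, Ptges2 and Ptges3 turn into prostaglandin E2. In the other branch, 5-lipoxygenase (Alox5) with its activating protein (Alox5ap) makes leukotriene A4, which Lta4h hydrolyses to leukotriene B4 and Ltc4s joins to glutathione as leukotriene C4. The arrays measure transcripts only, and in a culture, fewer cells of a type and less RNA per cell cannot be told apart.

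The members whose untreated level differed most between the slides were Ptgs1, Ptgs2, Ptges and Alox5, and their promoters are shown for that reason. Each is the 250 bases before the RefSeq start site in GRCm38.p6, 5′ to 3′ on the gene's strand. They lie at chr2:36230176-36230425 (plus strand, Ptgs1), chr1:150099781-150100030 (plus, Ptgs2), chr2:30903298-30903547 (minus, Ptges) and chr6:116461179-116461428 (minus, Alox5). Capitals mark matches on either strand to 5 motifs: the TATA box (TATAAA), the GC box (GGGCGG), the cAMP response element core (TGACGT), the C/EBP core (TTNNGNAA) and NF-kB, searched by its usual consensus.
Ptgs1: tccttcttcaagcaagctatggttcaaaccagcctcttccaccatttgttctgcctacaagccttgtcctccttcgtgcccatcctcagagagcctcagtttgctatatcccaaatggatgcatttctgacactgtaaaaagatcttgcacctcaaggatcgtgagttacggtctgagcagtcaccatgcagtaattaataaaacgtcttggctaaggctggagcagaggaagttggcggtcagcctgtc
Ptgs2: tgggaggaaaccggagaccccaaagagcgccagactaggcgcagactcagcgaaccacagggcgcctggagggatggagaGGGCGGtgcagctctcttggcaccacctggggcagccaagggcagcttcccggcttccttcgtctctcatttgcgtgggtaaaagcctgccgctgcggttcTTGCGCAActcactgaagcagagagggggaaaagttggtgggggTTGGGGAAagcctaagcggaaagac
Ptges: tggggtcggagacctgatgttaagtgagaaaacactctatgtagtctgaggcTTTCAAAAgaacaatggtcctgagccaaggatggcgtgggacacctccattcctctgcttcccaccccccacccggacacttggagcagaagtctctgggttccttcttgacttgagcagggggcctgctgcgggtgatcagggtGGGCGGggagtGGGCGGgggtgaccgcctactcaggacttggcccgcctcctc
Alox5: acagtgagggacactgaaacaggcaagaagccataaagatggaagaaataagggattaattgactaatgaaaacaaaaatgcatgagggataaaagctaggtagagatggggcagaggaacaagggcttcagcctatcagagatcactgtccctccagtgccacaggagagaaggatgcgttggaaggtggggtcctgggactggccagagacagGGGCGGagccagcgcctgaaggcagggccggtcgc

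The window before Ptgs1 held none of the 5 motifs, and its GC content was 48.0%, against a median of 52.4% over 32536 promoters. The window before Ptgs2 (61.6% GC) held a GC box whose far end lies 170 bases upstream and 2 C/EBP cores, at 69 and 25 bases. Ptges (59.6% GC) had GC boxes at 53 and 42 bases and a C/EBP core on the opposite strand at 198 bases, and Alox5 (52.8% GC) had a GC box at 35 bases. Such matches are common: 33.0% of all promoters of this length hold the GC box, 36.8% the C/EBP core, 12.3% the TATA box, 7.28% the NF-kB consensus and 6.50% the cAMP response element core. A match is a description of the letters only. RefSeq promoter entries matched 9 of the 10 members.

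The untreated (Cy3) levels of several of these genes differed between the slides. After normalization within and between arrays, the log2 Cy3 level of Ptgs2 was 12.30, 12.29, 12.21 and 12.31 on the slide 1 arrays (*L. acidophilus* 1 and 2, *B. clausii* 3, *B. bifidum* 3). On slide 2 (*B. clausii* 1 and 2, *B. bifidum* 1 and 2) it was 8.72, 8.67, 8.57 and 8.68. The untreated Ptgs2 level was thus 12.3-fold lower on slide 2, a log2 difference of -3.62 ± 0.09 (SE, limma over 4 against 4 arrays, adjusted p = 2.87e-07).

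Ptgs1, the other cyclooxygenase, went the opposite way. Its log2 Cy3 level was 7.14, 7.20, 7.09 and 7.26 on slide 1 and 11.39, 11.37, 11.33 and 11.18 on slide 2, in the same array order. This is 17.7-fold higher on slide 2, with a log2 difference of 4.15 ± 0.10 (SE, limma adjusted p = 2.75e-07). Ptgs1 was well above background on 3 of the 4 slide 1 arrays and in neither channel on *B. clausii* replicate 3; without that array the difference was 4.12 ± 0.08 (SE, adjusted p = 5.51e-08).

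Ptges, the inducible prostaglandin E synthase, and Alox5 followed Ptgs2. Log2 Cy3 of Ptges was 10.01, 10.03, 10.04 and 10.10 on slide 1 and 7.99, 7.97, 8.06 and 8.36 on slide 2, or 3.87-fold lower on slide 2 (log2 -1.95 ± 0.12 SE, limma adjusted p = 1.78e-05). Alox5 read 10.78, 10.75, 10.32 and 10.80 on slide 1 and 8.16, 8.18, 8.14 and 8.52 on slide 2, or 5.33-fold lower (log2 -2.41 ± 0.15 SE, adjusted p = 2.03e-05). In these 4 genes every slide 1 array lay on the same side of every slide 2 array. The 2 dimmer Alox5 probes were also lower on slide 2, by log2 -3.61 and -1.46, and the second Ptgs2 probe moved like the first, from 12.34 to 8.49.

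Over all genes, 27.1% passed the same test (16.5% higher and 10.6% lower on slide 2). Of the members, 1 was higher, 3 were lower and 6 did not pass; the median difference was -0.12 over the 10 members and 0.088 over all genes. The values that did not pass were -0.45 ± 0.19 for Pla2g4a, 0.27 ± 0.11 for Ptges2, -0.16 ± 0.20 for Ptges3, 0.049 ± 0.12 for Alox5ap, -0.076 ± 0.10 for Lta4h and 0.11 ± 0.12 for Ltc4s (SE). The slides did not overlap for 6 of the 10 members, these 4 with Pla2g4a and Ptges2, as for 36.5% of all genes (22.0% higher, 14.5% lower on slide 2). The exact two-sided permutation p of such a gene is 0.0286, the smallest that 4 against 4 arrays allows. Without *B. clausii* replicate 3, Pla2g4a (-0.26, limma adjusted p = 0.0238) and Ptges2 (0.20, adjusted p = 0.0385) passed as well.

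The treated channel showed the same split: Cy5 was 15.7-fold higher on slide 2 for Ptgs1 (with *B. clausii* replicate 3 at its measured value), and 8.57-fold, 4.32-fold and 5.68-fold lower for Ptgs2, Ptges and Alox5. The slide differences of these 4 genes were therefore larger than any treated over untreated difference of a member. Their cause was not tested, since the labels do not distinguish the untreated cells of the arrays.

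**Figure D1:**
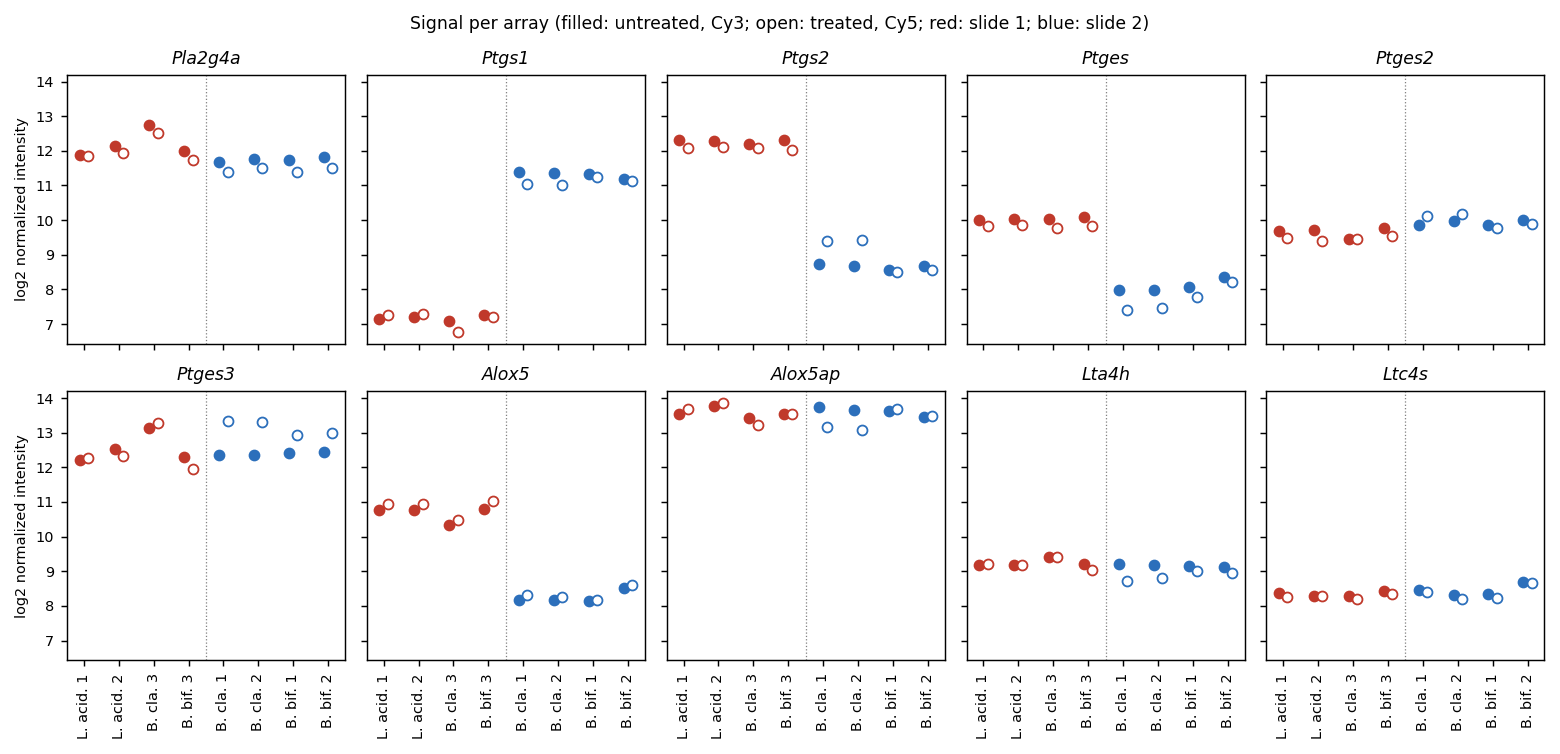
Log2 normalized intensity of the 10 genes on each array (one panel per gene; filled, untreated Cy3; open, treated Cy5; red, slide 1; blue, slide 2; levels of different genes are not comparable). Untreated Ptgs2, Ptges and Alox5 sit lower and Ptgs1 higher on all 4 slide 2 arrays than on all 4 slide 1 arrays.

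Against untreated cells, *B. clausii* was the strain with called members when all 8 arrays entered the fit: Ptgs1, Ptges and Alox5ap fell. Ptges and Alox5ap were lower on 3 of 3 *B. clausii* arrays, and Ptgs1 on the 2 where it was above background. At an adjusted p under 0.05, 4.76% of all genes were called (2.16% higher, 2.60% lower), against 0 higher and 3 lower among the 10 members. The median log2 ratio was -0.17 over the members and -0.0067 over all genes.

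Ptgs1 had log2 ratios of -0.36, -0.36 and -0.31 on *B. clausii* replicates 1, 2 and 3. On the *L. acidophilus* arrays it was 0.14 and 0.087, and on the *B. bifidum* arrays -0.099, -0.048 and -0.066. On replicate 3 neither channel was well above background, so that ratio carries no weight of its own. Replicates 1 and 2 lay below all arrays of the other strains, and the mean over the 3 was -0.34 ± 0.06 (SE, limma adjusted p = 0.0372), or 1.27-fold lower than untreated.

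Ptges, which makes prostaglandin E2 together with Ptgs2, had ratios of -0.58, -0.50 and -0.26 with *B. clausii*, -0.18 and -0.16 with *L. acidophilus*, and -0.28, -0.16 and -0.28 with *B. bifidum*. It was below 0 on all 8 arrays, and *B. clausii* replicate 3 overlapped with *B. bifidum*. Its mean of -0.45 ± 0.08 (SE, adjusted p = 0.0369) is 1.36-fold lower than untreated. The size depended on the processing: the scanner's log ratios of Ptges, converted to log2, were -1.28, -0.88 and -0.19 on *B. clausii* replicates 1, 2 and 3.

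Alox5ap, the membrane protein that presents arachidonic acid to 5-lipoxygenase, had ratios of -0.56, -0.57 and -0.21 with *B. clausii*. The other arrays were all above 0, at 0.15 and 0.067 with *L. acidophilus* and 0.058, 0.042 and 0.027 with *B. bifidum*. Its *B. clausii* mean of -0.45 ± 0.08 (SE, adjusted p = 0.0381) is also 1.36-fold lower. With median centring in place of loess, the *B. bifidum* mean of Alox5ap was -0.63, where the median of all genes was -0.36.

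These 3 calls stood close to the threshold. The adjusted p of Ptgs1, Ptges and Alox5ap was 0.0952 for each without either *L. acidophilus* array, 0.338 without *B. clausii* replicate 1, 0.330 without replicate 2, 0.0734 without *B. bifidum* replicate 1 and 0.0810 to 0.0816 without replicate 2. It was 0.0862 to 0.0982 with the scanner's log ratios, 0.115 with median centring and 0.0518 with a robust intensity trend; all 3 signs stayed negative. With the replicate number as a block, which also carries the slide, 2 members were called higher and 5 lower, against 28.5% of all genes (11.9% higher, 16.6% lower); Ptgs2 (0.43, adjusted p = 0.0450), Ptges3 (0.69, 0.00205), Pla2g4a (-0.27, 0.0157) and Lta4h (-0.29, 0.0338) were added. With the slide as a block, 25.3% of all genes were called (10.8% higher, 14.5% lower). The members were then 1 higher, Ptges3 at 0.55, and 5 lower, the 3 above with Pla2g4a at -0.26 and Lta4h at -0.25 (adjusted p from 0.00197 to 0.0397).

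With *B. bifidum*, 1.73% of all genes were called (0.501% higher, 1.23% lower) and no member (2 at an unadjusted p under 0.05). The nearest was Pla2g4a, at log2 -0.32, -0.31 and -0.27 on replicates 1, 2 and 3, a mean of -0.30 ± 0.06 (SE, limma adjusted p = 0.0565). With the replicate number as a block, where 14.9% of genes were called (4.06% higher, 10.9% lower), Pla2g4a passed at the same mean (adjusted p = 0.0173), as did Ptges3 (0.24, adjusted p = 0.0466). With the slide as a block, 14.0% were called (3.96% higher, 10.0% lower), Pla2g4a among them (adjusted p = 0.0111). With *L. acidophilus* 0 of all genes (0%) and no member were called by limma (at an unadjusted p under 0.05, 1097 genes with 1 member). No member passed with the slide as a block (2.74% of genes, 1.00% higher, 1.74% lower) or the replicate number (3.31%, 1.90% higher, 1.40% lower). *L. acidophilus* lay on slide 1 only, so its estimate with the slide block rests on the slide effect of the other strains. Ptges3, for example, was then 0.36, while its *L. acidophilus* arrays read 0.040 and -0.19. Without a block, the member values ran from -0.26 ± 0.09 for Ptges2 to 0.16 ± 0.08 for Alox5 (SE, n = 2).

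Pla2g4a was below 0 on 8 of 8 arrays, at -0.036 and -0.20 with *L. acidophilus* and -0.30, -0.27 and -0.25 with *B. clausii* (-0.27 ± 0.06 SE, adjusted p = 0.0502). Ltc4s was also below 0 on all 8 arrays, from -0.13 to -0.013, and Alox5 above 0 on all 8, from 0.029 to 0.23, neither called in any strain. All arrays share the dye orientation, and these 4 directions, Ptges included, cannot be told apart from a dye effect. The same holds for the negative ratios of Ptgs2, found on 6 arrays, all but *B. clausii* replicates 1 and 2. These signs also depended on the normalization. With median centring in place of loess, *L. acidophilus* means were 0.29 for Pla2g4a, 0.30 for Ptgs2, 0.086 for Ptges and 0.087 for Ltc4s. The median of all genes was then 0.14, with Pla2g4a and Ptgs2 above it and Ptges and Ltc4s below. Alox5 read -0.17 with *B. clausii* and -0.27 with *B. bifidum*, where the medians were -0.22 and -0.36. With *B. clausii* replicates 1 and 2, the 2 other Alox5 probes were below 0, at -0.22 and -0.21 and at -0.055 and -0.23, against 0.15 and 0.076 for the brightest. The second Pla2g4a probe read 0.22 on *B. clausii* replicate 3 and 0.017 on *L. acidophilus* replicate 1.

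**Figure D2:**
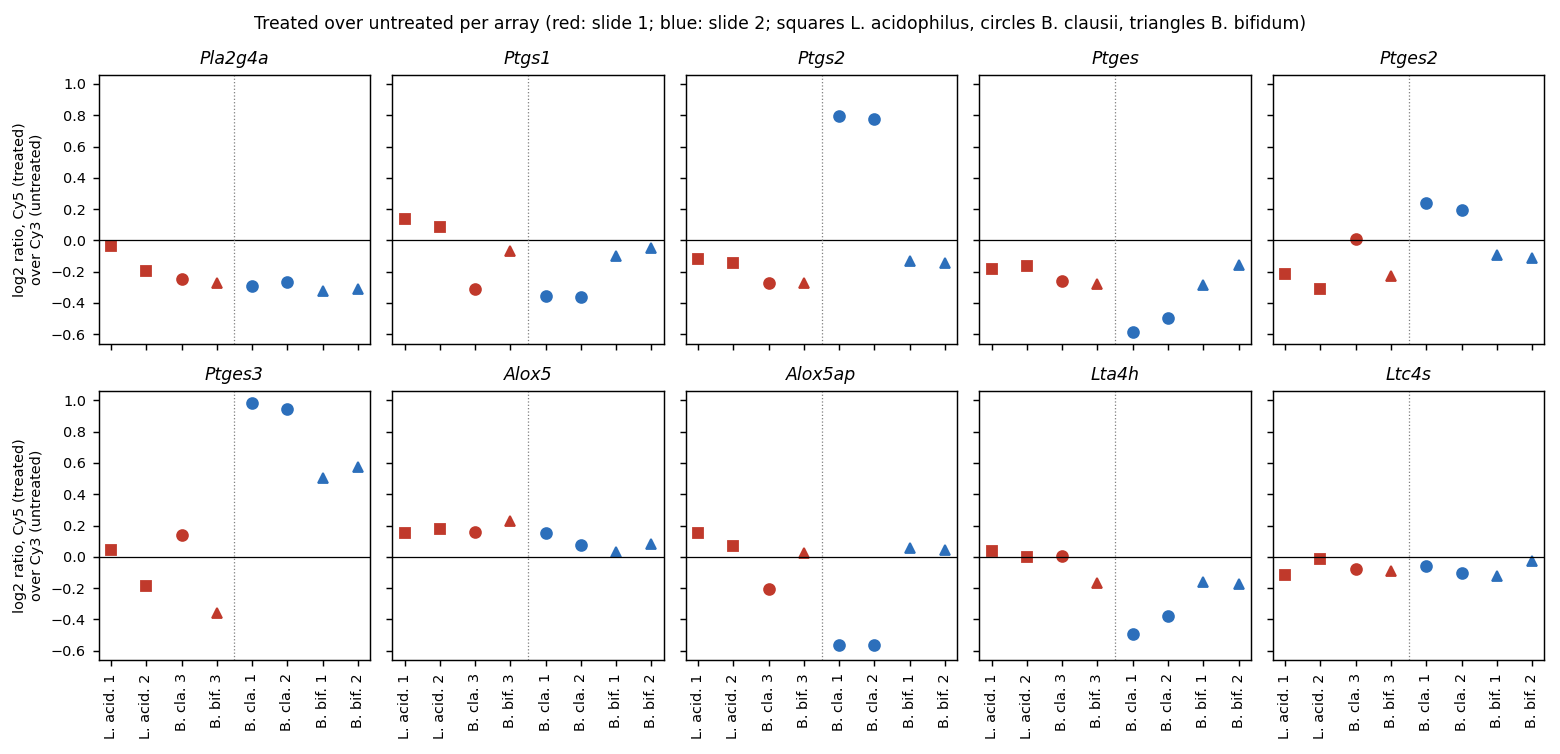
Log2 ratio of treated (Cy5) over untreated (Cy3) for each gene on each array (red, slide 1; blue, slide 2; squares *L. acidophilus*, circles *B. clausii*, triangles *B. bifidum*). Ptgs2 lies at 0.80 and 0.77 on the slide 2 *B. clausii* arrays and between -0.28 and -0.12 on the other 6.

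The ratios of *B. clausii* differed between the slides, Ptgs2 most of all. Slide 1 held only replicate 3 of this strain, for which the scanner software did not accept the spot grid. A difference between slides and a fault of that array therefore cannot be told apart. Ptgs2 had log2 ratios of 0.80 and 0.77 on *B. clausii* replicates 1 and 2 (slide 2) and -0.27 on replicate 3 (slide 1). It read -0.14 and -0.14 on *B. bifidum* replicates 1 and 2, -0.28 on replicate 3, and -0.12 and -0.15 with *L. acidophilus*. It was high on 2 arrays only, both of *B. clausii* and of slide 2, where its untreated level was 12.3-fold lower than on slide 1. The scanner's log ratios of Ptgs2, converted to log2, were 1.06 and 1.08 on these 2 arrays and -0.28 on *B. clausii* replicate 3.

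Over all arrays the *B. clausii* mean of 0.43 ± 0.18 for Ptgs2 did not pass (SE, adjusted p = 0.145). With median centring in place of loess this mean was 0.030, where the median of all genes was -0.22. Under that centring the slide difference given next was 0.68, where the median of all genes was -0.29. The difference between slides within *B. clausii* was 1.06 ± 0.07 (SE, limma adjusted p = 0.000382), with the slide 1 array assumed to vary like the other groups. Within *B. bifidum* it was 0.14 ± 0.07 (adjusted p = 0.186).

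The main Ptgs2 probe is printed on 10 spots per array, of which 0 to 3 were left out as outliers. The spots of an array had SDs of 0.059 to 0.128, and no spot of *B. clausii* replicates 1 and 2 came down to the level of any other array. The other Ptgs2 probe gave 0.37 and 0.47 on these 2 arrays and -0.39 to -0.15 on the others, so the size of the rise differed between probes. No member spot was saturated.

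**Figure D3:**
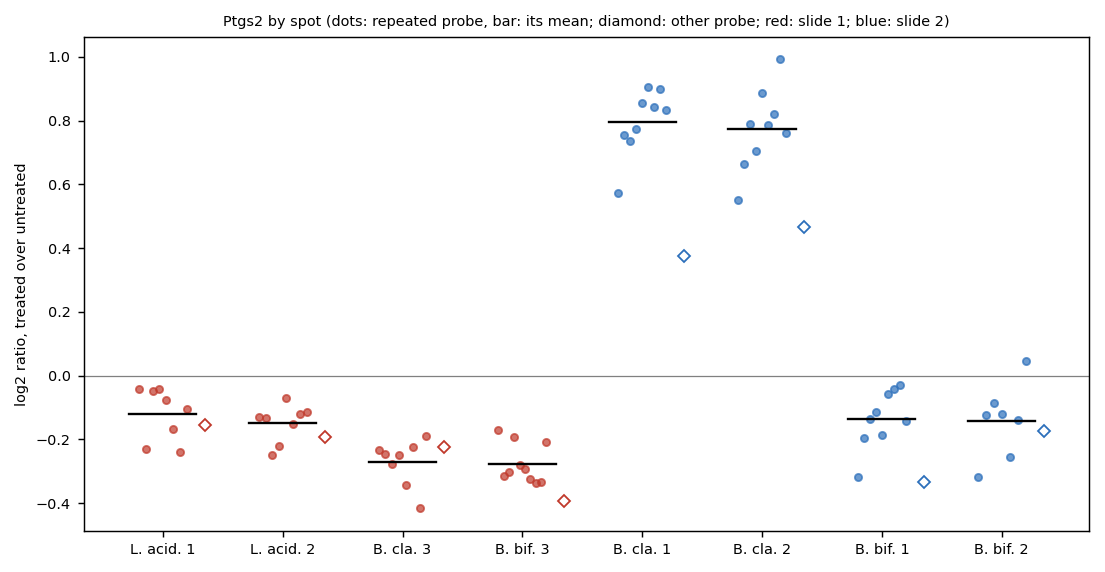
Log2 ratio of each Ptgs2 spot by array (dots, spots of the repeated probe; bars, their mean; diamonds, the other Ptgs2 probe; red, slide 1; blue, slide 2). Spots of *B. clausii* replicates 1 and 2 lie apart from those of the 6 other arrays.

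Ptges3, a synthase of prostaglandin E2 that is also the co-chaperone p23 of Hsp90, was high on all 4 slide 2 arrays. Its log2 ratios were 0.98 and 0.94 on *B. clausii* replicates 1 and 2 and 0.50 and 0.57 on *B. bifidum* replicates 1 and 2. On slide 1 they were 0.040 and -0.19 (*L. acidophilus*), 0.14 (replicate 3 of *B. clausii*) and -0.36 (replicate 3 of *B. bifidum*). The slides differed by 0.82 ± 0.11 within *B. clausii* (SE, limma adjusted p = 0.00228) and by 0.90 ± 0.11 within *B. bifidum* (adjusted p = 0.00246).

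A second, dimmer Ptges3 probe did not show this. It read 0.042 and 0.013 on *B. clausii* replicates 1 and 2 and -0.19 and -0.21 on *B. bifidum* replicates 1 and 2, and was between -0.20 and -0.030 on slide 1. The rise of Ptges3 thus rests on the brighter probe. With median centring in place of loess, that probe lay 0.62 and 0.59 above the median of all genes on *B. clausii* replicates 1 and 2, and 0.21 above and -0.12 from it on *B. bifidum* replicates 1 and 2.

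Within *B. clausii* 3 more members differed between slides: Lta4h by -0.44 ± 0.08 (adjusted p = 0.00658), Alox5ap by -0.36 ± 0.07 (adjusted p = 0.0105) and Ptges by -0.28 ± 0.08 (SE, adjusted p = 0.0426). Members that differed were thus 2 higher and 3 lower on slide 2, where 38.7% of all genes were called (16.0% higher, 22.7% lower). Within *B. bifidum* Ptges3 alone was called, against 29.8% of all genes (12.4% higher, 17.3% lower).

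Within slide 2, in a fit with a mean for each strain on each slide, *B. clausii* had 3 members higher and 5 lower than untreated, and Alox5 and Ltc4s did not pass. There, 56.1% of all genes were called (25.3% higher, 30.8% lower). Ptgs2 rose by 0.79 ± 0.04 (SE, limma adjusted p = 3.24e-05), or 1.72-fold, and Ptges3 by 0.96 ± 0.06 (adjusted p = 6.57e-05), or 1.95-fold. Ptges2, the third prostaglandin E synthase, rose by 0.22 ± 0.04 (adjusted p = 0.00648), from arrays at 0.24 and 0.19, but with median centring these read -0.41 and -0.42, where the medians of all genes were -0.32 and -0.30, so that Ptges2 lay -0.088 and -0.13 from them.

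The members that fell on slide 2 were Pla2g4a (-0.28 ± 0.05), Ptgs1 (-0.36 ± 0.04), Ptges (-0.54 ± 0.05), Alox5ap (-0.57 ± 0.04) and Lta4h (-0.44 ± 0.04), with adjusted p from 0.000104 to 0.00404. Lta4h, the hydrolase that makes leukotriene B4, read -0.50 and -0.38 on these arrays and 0.005 on the slide 1 *B. clausii* array. On slide 1, with 1 *B. clausii* array and 3.23% of all genes called (1.55% higher, 1.68% lower), only Ptgs1 passed (-0.31 ± 0.06 SE, adjusted p = 0.0497), on the array where it was not above background.

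*B. bifidum* on slide 2 had 1 member higher and 4 lower, against 40.4% of all genes (15.6% higher, 24.8% lower). Ptges3 rose by 0.54 ± 0.06 (SE, limma adjusted p = 0.000913), or 1.45-fold. Pla2g4a fell (-0.32 ± 0.05, adjusted p = 0.00342), as did Ptges (-0.22 ± 0.05, 0.0129), Lta4h (-0.17 ± 0.04, 0.0262) and Ptgs2 (-0.14 ± 0.04, 0.0305). On slide 1, with 1 *B. bifidum* array and 12.6% of genes called (4.97% higher, 7.64% lower), Ptgs2 (-0.28 ± 0.05, adjusted p = 0.0284) and Ptges3 (-0.36 ± 0.09, adjusted p = 0.0468) passed as lower. The slide 1 values take their spread from the other groups. The second Ptges3 probe read -0.20 on slide 1 and -0.20 on slide 2 with *B. bifidum*, so the opposite calls of Ptges3 rest on the brighter probe. The 2 *L. acidophilus* arrays of slide 1, where 12.1% of genes were called (6.04% higher, 6.11% lower), had Ptges2 lower at -0.22 and -0.31 (-0.26 ± 0.04 SE, adjusted p = 0.0213).

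**Figure D4:**
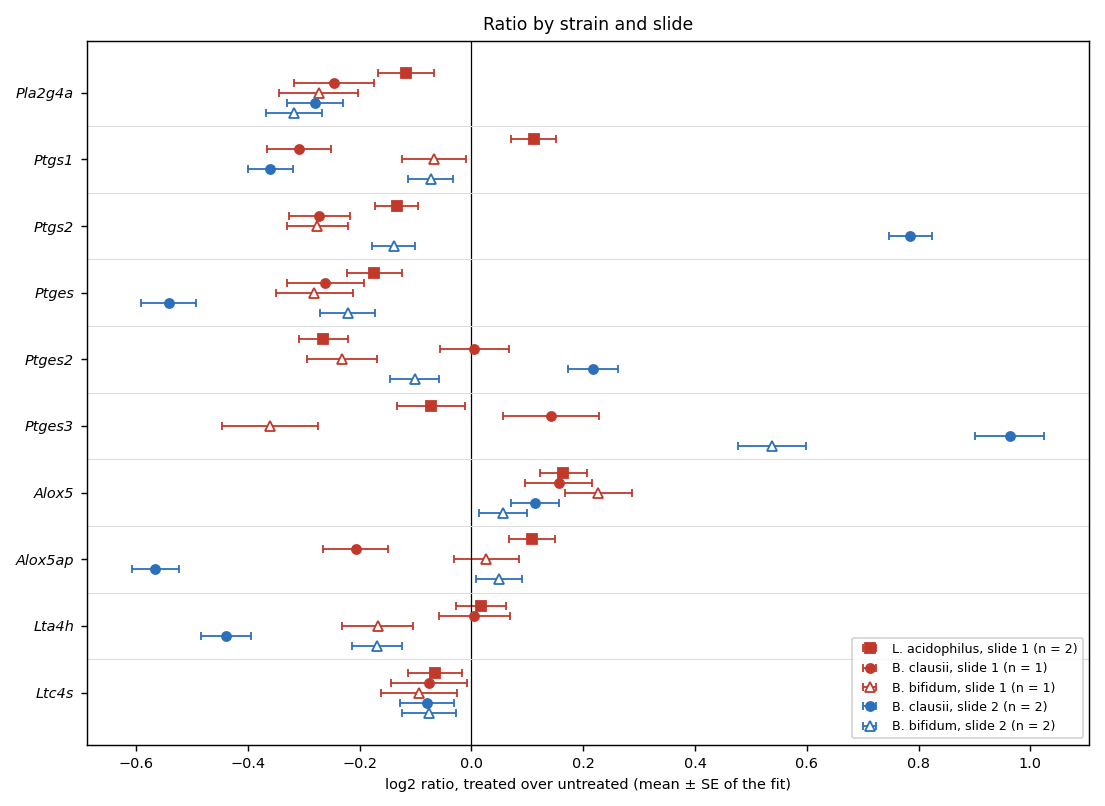
Log2 ratio of treated over untreated by strain and slide, mean ± SE of the fit with a mean for each strain on each slide (n arrays in the key; with n = 1 the SE comes from the spread of the other groups). *B. clausii* on slide 2 lies apart for Ptgs2, Ptges, Alox5ap and Lta4h, and Ptges3 is high in both strains on slide 2.

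Between *B. clausii* and *B. bifidum*, no member passed over all 8 arrays, where 0.0264% of all genes did (0.0132% each way) (limma; at an unadjusted p under 0.05, 1798 genes with 4 members). The estimates with the lowest p were -0.49 ± 0.12 for Alox5ap (adjusted p = 0.253) and -0.27 ± 0.09 for Ptgs1 (SE, adjusted p = 0.306). With the slide as a block, 1.54% of genes passed (0.955% higher, 0.580% lower), among them Alox5ap (-0.49, adjusted p = 0.0491) and Ptges3 (0.45, adjusted p = 0.0485). With the replicate number as a block 0.0198% passed (0.0132% higher, 0.00659% lower) and no member.

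Within slide 2, where both strains have 2 arrays, 7 members differed, as did 31.4% of all genes (15.8% higher, 15.6% lower in *B. clausii*). Ptgs2 was higher with *B. clausii* by 0.92 ± 0.05 (SE, limma adjusted p = 0.000246), Ptges3 by 0.42 ± 0.09 (0.0123) and Ptges2 by 0.32 ± 0.06 (0.0103). Alox5ap was lower by -0.62 ± 0.06 (adjusted p = 0.000780), Ptges by -0.32 ± 0.07 (0.0153), Ptgs1 by -0.29 ± 0.06 (0.0112) and Lta4h by -0.27 ± 0.06 (0.0208). For Pla2g4a the difference was 0.037 ± 0.07, for Alox5 0.057 ± 0.06 and for Ltc4s -0.0031 ± 0.07 (SE), none passing. On slide 1, with 1 array per strain, no member differed, where 0.312% of genes did (0.186% higher, 0.126% lower); Ptgs2 read -0.27 with *B. clausii* and -0.28 with *B. bifidum*.

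Of 50 other genes of the pathway (other phospholipases, synthases, catabolic enzymes, transporters and receptors), 48 were on the array and 37 passed the filter. Over all arrays *B. clausii* called 1 higher and 0 lower: Ptgr2, which reduces 15-keto-prostaglandins, at 0.38, 0.52 and 0.18 on replicates 1, 2 and 3 (0.36 ± 0.08 SE, limma adjusted p = 0.0473). A second, dimmer Ptgr2 probe read -0.32, -0.39 and 0.097 on the same arrays. *L. acidophilus*, *B. bifidum* and the difference between *B. clausii* and *B. bifidum* called none of the 37 (3, 7 and 2 at an unadjusted p under 0.05).

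Within slide 2, *B. clausii* called 6 of the 37 higher and 13 lower, and *B. bifidum* 4 higher and 7 lower, where 56.1% and 40.4% of all genes were called, so these counts do not set the list apart. Hpgds, the hematopoietic prostaglandin D synthase, fell with both, to -1.53 and -1.52 with *B. clausii* and -0.86 and -0.58 with *B. bifidum* (means -1.52 ± 0.07 and -0.72 ± 0.07 SE, limma adjusted p = 2.95e-05 and 0.000527). It read -0.059 and -0.13 on the slide 1 arrays of these strains. Untreated Hpgds was dimmer there, with a mean log2 Cy3 of 7.37 on slide 1, above background on 3 of 4 arrays, and 8.72 on slide 2. The slide 1 ratios were thus read near background and cannot show whether a similar fall occurred. The difference of -0.80 ± 0.10 between the strains on slide 2 passed too (adjusted p = 0.00198).

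Of the other pathway genes named on slide 2, some were called in both strains. Pla2g12a, a secreted phospholipase A2, rose (0.78 ± 0.05 with *B. clausii*, 0.67 ± 0.05 with *B. bifidum*), and its second probe read 0.49 and 0.56. Abcc4, an exporter of prostaglandins, fell (-0.70 ± 0.04 and -0.35 ± 0.04), though its dimmer probe read -0.13 and 0.056. Mgst3, a microsomal glutathione transferase, fell (-0.40 ± 0.04 and -0.42 ± 0.04), as did Cysltr1, a receptor of cysteinyl leukotrienes, with *B. bifidum* (-0.55 ± 0.05). Cysltr1 read -0.48 with *B. clausii*, and its dimmer probe -0.32 with *B. clausii* and -0.64 with *B. bifidum*. Ptgir, the prostacyclin receptor, fell with *B. clausii* (-0.47 ± 0.04, all SE, adjusted p from 5.98e-05 to 0.00123 for these genes), while its dimmer probe read 0.17; with *B. bifidum* it read -0.10.

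In the untreated channel, 4 of the 37 were higher and 5 lower on slide 2, against 27.1% of all genes (16.5% higher, 10.6% lower), a share near that of the list. Hpgds was 1.35 ± 0.16 higher (log2, SE, limma adjusted p = 0.000592), Cysltr1 1.44 ± 0.25 higher (0.00411) and Pla2g15, a lysosomal phospholipase, lower by -0.67 ± 0.10 (0.00228). Tbxa2r, the thromboxane receptor, passed as higher (0.00543), but was above background on 1 of 4 slide 1 arrays, so no size is given. Hpgds and Cysltr1 were above it on 3 of 4. Ltb4r2, a receptor of leukotriene B4, was not well above background on any slide 1 array and at least 1.37-fold higher on slide 2 (adjusted p = 0.00677); the bound sets its slide 2 mean against the lowest signal called above background on each slide 1 array.

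The genes whose ratio followed Ptgs2 most closely over the 8 arrays were sought among 6303 named genes with a range at least that of Ptgs2 divided by 2. They were Pno1 (Pearson r = 0.996), Pold2 (0.995), Slc9a3r2 (0.994), Crip1 (0.994) and Mrpl20 (0.993). The arrays share slides, and 2 of them carry nearly all of the range. Crip1 read 1.37 and 1.42 on *B. clausii* replicates 1 and 2 and -0.21 to 0.061 on the other 6.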

How the data were processed

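Two-colour Agilent arrays were read from the deposited scanner files, whose spot and background values are linear intensity, per the file headers. The same files hold processed intensity and a log10 ratio of Cy5 over Cy3, background-subtracted and dye-normalized, per the file headers. The authors' deposited value table equals that log10 ratio within 0.005. The file headers name Feature Extraction 10.7.3.1 and the submitters' processing notes 10.5.1.1. Median signals were corrected with normexp (offset 50) and normalized within arrays by loess in limma 3.58.1 (R 4.3.3), which gave the log2 ratios; the deposited files hold no log2 values. Outlier spots were left out, saturated spots kept, and spots of a probe averaged. A probe entered if either channel was well above background on 2 or more arrays (28566 of 41174). The brightest stood for its gene. Names came through transcript accessions matched to RefSeq (GRCm38.p6), for 29161 of 43379 non-control features. Strain means were tested over all 8 arrays with lmFit and eBayes, adjusted over 15178 genes by Benjamini-Hochberg (0.05). Cy3 was compared after Aquantile. The steps were tested on simulated data.

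Same-numbered *B. clausii* and *B. bifidum* arrays deviated together (r = 0.466, 0.421 and 0.486), which by the preset rule pairs them. Crossed numbers within slide 2 did too (0.450 and 0.416), since number 3 is the slide 1 array. *L. acidophilus* numbers did not pair (-0.064 to 0.018).

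The members and lists were chosen with earlier results of these data known. All 10 members are named, with up to 5 called genes per comparison from the pathway list and the 5 genes most like Ptgs2 in Pearson r. Alternatives were other background corrections, normalizations, filters, probe rules and variance models, the authors' values, slide and replicate blocks, slides apart, and each array left out. The number of arrays limits the precision.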

Additional observations from a re-analysis of the deposited data

Results flagged for a closer look

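Samples far from the others of their slide were found for 2 genes in the untreated channel, by Dixon's ratio of the gap to the range; chance marks about 1 in 20 such groups of 4. Alox5 on slide 1 had a ratio of 0.913, from a log2 Cy3 level of 10.32 on *B. clausii* replicate 3 against 10.75 to 10.80 on the other 3 arrays. Alox5 on slide 2 had 0.890, from 8.52 on *B. bifidum* replicate 2 against 8.14 to 8.18. Lta4h on slide 1 had 0.849, from 9.40 on *B. clausii* replicate 3 against 9.18 to 9.21. *B. clausii* replicate 3 was the array with 12514 probes above background; its part in these values was not tested.

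The treated over untreated ratio differed between the slides within a strain for 5 members (log2, slide 2 minus slide 1 ± SE, limma with Benjamini-Hochberg adjustment). Within *B. clausii* these were Ptgs2 (1.06 ± 0.07, adjusted p = 0.000382), Ptges3 (0.82 ± 0.11, 0.00228), Lta4h (-0.44 ± 0.08, 0.00658), Alox5ap (-0.36 ± 0.07, 0.0105) and Ptges (-0.28 ± 0.08, 0.0426). Within *B. bifidum* it was Ptges3 (0.90 ± 0.11, adjusted p = 0.00246). All of them set 2 arrays of slide 2 against 1 of slide 1.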

How the results depend on the processing

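Counts are of the 10 members called, with all genes in brackets. *B. clausii* over untreated had 3 (722). It had 1 (251) with no background correction, 0 (71) with the scanner's log ratios, 0 (71) with the deposited table, 0 (0) with median centring, 0 (78) with a robust intensity trend, 6 (3835) with the slide as a block, 7 (4328) with the replicate block, 8 (8498) on slide 2 arrays alone, 1 (488) for slide 1 values and 8 (8517) for slide 2 values. Leaving out arrays gave 0 to 8 (0 to 5478), with 8 without *B. clausii* replicate 3 and 5 without *B. bifidum* replicate 3. *B. bifidum* had 0 (262), and 1 (348) with the strict filter, 1 (2123) with the slide block, 2 (2268) with the replicate block, 5 (5882) on slide 2 alone, 2 (1908) for slide 1 values, 5 (6131) for slide 2 values, and 0 to 2 (0 to 2086) without an array. All genes fell to 3 with the scanner's log ratios, the deposited table or median centring, and to 130 with the robust trend. *L. acidophilus* had 0 (0), 1 (1844) for slide 1 values, and 0 with 416 genes under the slide block and 502 under the replicate block. Between *B. clausii* and *B. bifidum* the count was 0 (4), 2 (233) with the slide block, 0 (3) with the replicate block, 7 (4504) on slide 2 alone, 7 (4765) for slide 2 values and 0 to 4 (0 to 2134) without an array, 4 without *B. clausii* replicate 3. The slide contrast of *B. clausii* had 5 (5846), 0 (42) with median centring and 4 to 5 without an array; Ptges lost its call without either *L. acidophilus* array (adjusted p = 0.0639) or *B. clausii* replicate 1 (0.140) or 2 (0.0640). That of *B. bifidum* had 1 (4499), 0 (0) with median centring, 2 (4625) with the strict filter, and 1908 to 1911 genes with the authors' values. The untreated channel had 4 (4108), 4 to 6 without an array (7928 genes without *B. clausii* replicate 3), 3 (1807) with the strict filter, which leaves out Ptgs1, and 5 (2002) with each array's Cy3 median taken off. The causes were not tested.

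Ptges3 with *B. bifidum* was 0.24 over all arrays, not called, and -0.36 on slide 1, called with the opposite sign. Of 1336 member values under alternatives, 1147 kept sign and side of the threshold, 74 gained a call, 48 lost it and 66 changed sign without a call. Median centring shifted the median of all genes by 0.14 (*L. acidophilus*), -0.22 (*B. clausii*) and -0.36 (*B. bifidum*). Against that median, *B. clausii* values were -0.59 for Ptgs1, -0.44 for Ptges and -0.70 for Alox5ap. *B. bifidum* values were -0.32, -0.24 and -0.27 for the same genes, and *L. acidophilus* values -0.0081, -0.055 and 0.53.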
